A study of Mus musculus with 2 samples.

Results

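AP-1 is a family of transcription factors built from pairs of basic leucine zipper (bZIP) proteins, one of the Fos family (Fos, Fosb, Fosl1, Fosl2) and one of the Jun family, or 2 Jun proteins (Jun, Junb, Jund). The genes described here are these 7, and their probes were chosen by 1 rule, that the platform annotation gives the probe a single gene symbol and that this symbol is a listed member. The annotation named 9 probes of 6 of the genes, among 19057 named genes on the array. Fosl1 had no named probe and is not analysed here.

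Hippocampal RNA of male ICR mice, an outbred stock, was hybridised to Illumina bead arrays, on which each probe is carried by many beads. The CeCl3 array held RNA of mice dosed with cerium chloride, a lanthanide salt, through the stomach on each of 90 days, and the RNA on the control array came from mice given purified water in the same way. The label of the treated sample names 0.5, 1 and 2 mg per kg of body weight together, so which dose or mixture of doses the array carries is not known, and neither is the number of mice behind each array. Both samples are labelled with an age of 4 weeks, which cannot be the age at the end of dosing. There was 1 array per group, each on a BeadChip of its own, so array, BeadChip and treatment cannot be told apart, and no difference could be tested against a spread between samples.

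Neurons switch on Fos and Fosb, and to a lesser degree Junb and Jun, within minutes of synaptic activity, without new protein synthesis, which is why these genes are used to mark active cells in the hippocampus. Serum response factor with its Elk partners and the cAMP-responsive factor Creb1 act on the Fos promoter, and kinases of the ERK and JNK pathways modify the Fos and Jun proteins. Jund and Fosl2 are known as more steadily expressed members, and Fosb also gives a truncated, stable form that builds up under repeated stimulation.

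Probes with a detection p-value under 0.01, which is the comparison with negative control beads by the array software, were called detected. This held for 38.5% (CeCl3) and 36.3% (control) of 45281 probes, and the median probe had 42 (CeCl3) and 44 (control) beads. Differences are given as CeCl3 minus control on the log2 scale, with a 95% interval that covers bead-to-bead error within the arrays alone, and the number of arrays limits the precision. Among the 9473 named genes detected on both arrays the median difference was -0.05, 57.7% lay below 0, and the 5th and 95th percentiles were -0.53 and 0.47. The label of sex was not met by the control array. Of 4 Xist probes, 0 gave a detected signal for CeCl3 and 4 for the control, while of 8 probes for the Y-linked genes Eif2s3y, Kdm5d and Uty, 1 was detected for CeCl3 and 0 for the control. The sex and the identity of the samples are therefore uncertain, each signed difference below rests on the labels as given, and treatment cannot be told apart from a difference in sex or a mix-up of samples, and with 1 array per group no result can be given without the array concerned.

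Hippocampal neurons were represented on both arrays, since 6 of 7 of their markers were detected, with differences between -0.08 and 0.40. Of these 6, 2 had a bead interval above 0 and 0 below, where 8.59% of all genes detected on both arrays had an interval above 0. Of 7 general neuron markers, 6 (Syt1, Rbfox3, Camk2a, Slc17a7, Gad1 and Gad2) were detected on both arrays, and Snap25 was detected on neither. The 6 had a median of 0.11, differences between -0.13 and 0.27, 1 interval above 0 and 0 below. Markers of neighbouring tissue were present too, and are read beside the 13.9% of all genes detected on both arrays that had a bead interval below 0. Of 5 hypothalamic genes, 4 were detected on both arrays and 3 were lower on the CeCl3 array with a bead interval below 0 (summed signal 3911 on the CeCl3 array, against 5493 on the control array). The striatal list had 3 of 4 genes detected on both arrays and 1 interval below 0, that of the dopamine receptor Drd2 at -0.67 (-1.09 to -0.26). Oligodendrocyte markers were lower in 4 of 4 measured, where 57.7% of all genes detected on both arrays were lower. Of the 4, 2 had intervals below 0, while Mag (-0.005) and Cnp (-0.02) lay close to 0 (summed signal 57321 on the CeCl3 array, against 66361 on the control array). The lists of astrocytes, microglia, endothelium, choroid plexus, erythrocytes and thalamus had medians between -0.12 and 0.21 and at most 1 interval below 0 each. Among these lists only that of erythrocytes had an interval above 0, that of Alas2 at 0.54 (0.14 to 0.93). All 5 neutrophil markers were measured, 1 on both arrays and 4 on the CeCl3 array alone, with a summed signal of 2169 on the CeCl3 array, against 422 on the control array. In whole tissue, fewer cells of a type and less RNA per cell cannot be told apart, and the part of sex, tissue mix or blood cells in the differences below was not tested.

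Of the 6 measured AP-1 genes, 5 were lower on the CeCl3 array, where 57.7% of all genes detected on both arrays were lower. The median of the 6 was -0.47 against -0.05 over all genes detected on both arrays. Fos lay lowest, at 0.474 times its control level, and Junb, Fosl2, Jund and Jun lay between -0.49 and -0.31. Fosb alone was not lower, on a dim probe. The bead interval lay below 0 for 4 of the 6 genes, where 13.9% of all genes had such an interval, and above 0 for 0 of them, where 8.59% of all genes did. At least 2-fold lower was 1 of the 6, against 0.496% of all genes, and 0 of the 6 were at least 2-fold higher, against 0.486%. With genes detected on 1 array alone included, 1.95% of all genes lay at least 2-fold lower and 2.77% at least 2-fold higher by measured values.

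**Figure D1:**
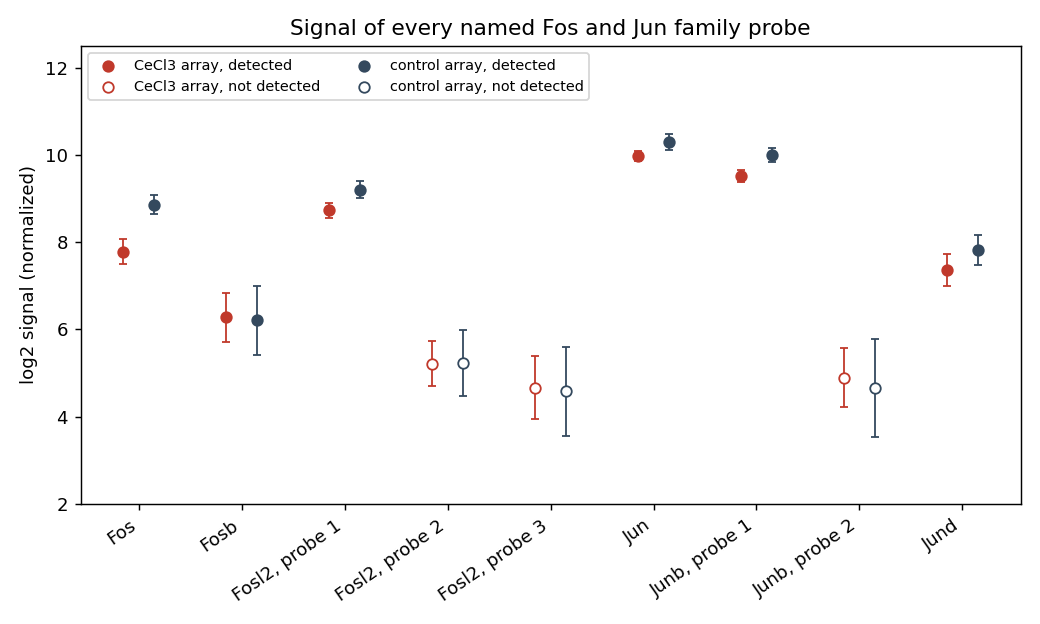
Normalized log2 signal of all 9 named probes on the CeCl3 and the control array, with bars of 95% bead error and open circles for probes not detected. The CeCl3 point lies below the control point for Fos, Jun, Jund and the brightest probes of Fosl2 and Junb, and the bars overlap for Fosb, Jund and the 3 undetected probes.

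Fos encodes the short-lived inducible protein that has to pair with a Jun protein to bind DNA. Its 1 probe had a deposited signal of 207 on the CeCl3 array (standard error over beads 22.7, 50 beads), against 452 on the control array (35.9, 39 beads). After normalization its log2 signal was 7.78 on the CeCl3 array, against 8.86 on the control array, a difference of -1.08 (bead interval -1.44 to -0.71). The bead error is therefore smaller than the difference between the arrays. Ranked from the lowest, Fos was number 32 of 9473 genes, within the lowest 0.338%. With a single probe, no other stretch of the transcript was measured. Among 3114 genes with at least 2 probes detected on both arrays, 7 had a brightest probe at or below the difference of Fos. The second probe lay below 0 in 6 of these 7, where 57.7% of all genes detected on both arrays did. It was at least 2-fold lower in 2, against 0.496% of all genes. Over all 3114 genes the 2 brightest probes had the same sign in 56.6%. The SD within a gene, given per probe and not for the gap between the 2 probes, was 0.29. Over all genes detected on both arrays the differences had an SD of 0.32.

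Fosb encodes the close relative of Fos whose truncated form persists in repeatedly stimulated neurons. Its probe was dim, with a deposited signal of 64.8 on the CeCl3 array (standard error 15.4, 30 beads), against 61.2 on the control array (20.8, 31 beads), and a detection p-value of 0.00641 on each. The log2 signal was 6.27 on the CeCl3 array, against 6.20 on the control array, close to the lowest detected signals of 5.87 (CeCl3) and 6.14 (control). The difference of 0.07 had a bead interval of -0.91 to 1.04, so a change of nearly 2-fold either way lies within bead error. The sources used here do not say which forms of Fosb the probe covers.

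Fosl2, or Fra-2, lacks the strong activating domain of Fos. Its brightest probe had a deposited signal of 412 on the CeCl3 array (standard error 25.4, 57 beads), against 579 on the control array (42.1, 47 beads), and a log2 signal of 8.73 (CeCl3) and 9.21 (control). The difference was -0.48 (-0.74 to -0.21), or 0.719 times the control level. It ranked 613 of 9473 from the lowest. Its other 2 probes carry the same RefSeq accession but were detected on neither array. One had a deposited signal of 21.5 on the CeCl3 array, against 22.2 on the control array (detection p-values 0.0620 for CeCl3 and 0.109 for the control), and the other lay below 0 on both. At these levels neither probe measures a difference.

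Jun, the founding Jun protein and a substrate of the JNK kinases, had a deposited signal of 999 on the CeCl3 array (standard error 40.2, 40 beads), against 1239.9 on the control array (80.9, 51 beads). Its log2 signal was 9.98 on the CeCl3 array, against 10.29 on the control array, a difference of -0.31 (-0.52 to -0.09), or 0.809 times the control level. This was the smallest of the 5 negative differences, at rank 1456 of 9473, so 15.4% of genes lay as low or lower.

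Junb, an inducible Jun protein that can hold back Jun activity, was measured on 1 RefSeq probe with a deposited signal of 719 on the CeCl3 array (standard error 34.4, 37 beads), against 1014 on the control array (59.7, 40 beads). Its log2 signal was 9.51 (CeCl3) and 10.01 (control), and the difference was -0.49 (-0.70 to -0.28), or 0.711 times the control level, at rank 565 of 9473. A second probe, designed on a cDNA clone, was detected on neither array, with a deposited signal of 9.11 on the CeCl3 array, against -3.20 on the control array.

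Jund, the Jun protein that resting cells hold and that menin binds, had a deposited signal of 152 on the CeCl3 array (standard error 21.5, 31 beads), against 214 on the control array (27.7, 37 beads). Its log2 signal was 7.36 (CeCl3) and 7.82 (control). The difference of -0.46 was about as large as those of Junb and Fosl2, but the bead interval of -0.97 to 0.04 held 0. Its rank was 650 of 9473.

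**Figure D2:**
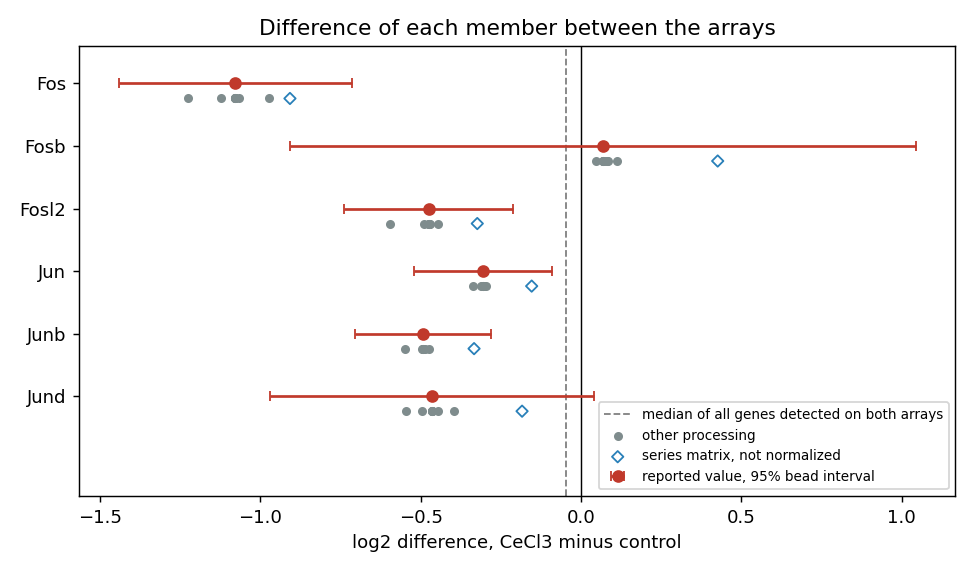
Log2 difference, CeCl3 minus control, of each measured member with its 95% bead interval (red), and below it the values under 9 other processing choices (grey, with the series matrix without normalization as a diamond). Fos stands at -1.08, 4 members between -0.49 and -0.31, and Fosb at 0.07 with an interval across 0.

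The members were also set against each other, by the difference between their log2 differences. Of 15 pairs, 4 had a bead interval without 0, and all 4 involved Fos. The difference of Fos minus that of the other gene was -0.77 (-1.19 to -0.35) for Jun, -0.60 (-1.05 to -0.15) for Fosl2, -0.59 (-1.01 to -0.16) for Junb and -1.15 (-2.19 to -0.10) for Fosb. For Jund it was -0.61, with an interval (-1.24 to 0.01) that held 0. Jun, Junb, Jund and Fosl2 could not be separated from one another by bead error, with pairwise differences between -0.17 and 0.19. The intervals of the 15 pairs are not adjusted for their number, and Fos is the lowest of the measured members. How often such an interval leaves out 0 for pairs of other genes was not counted. Over all genes detected on both arrays, single-gene intervals lay below 0 in 13.9% and above 0 in 8.59%. Each member also rests on a single detected probe. The SD between probes of the same gene, given per probe, was 0.29. Whether the gaps exceed those between probes of the same gene was not tested.

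**Figure D3:**
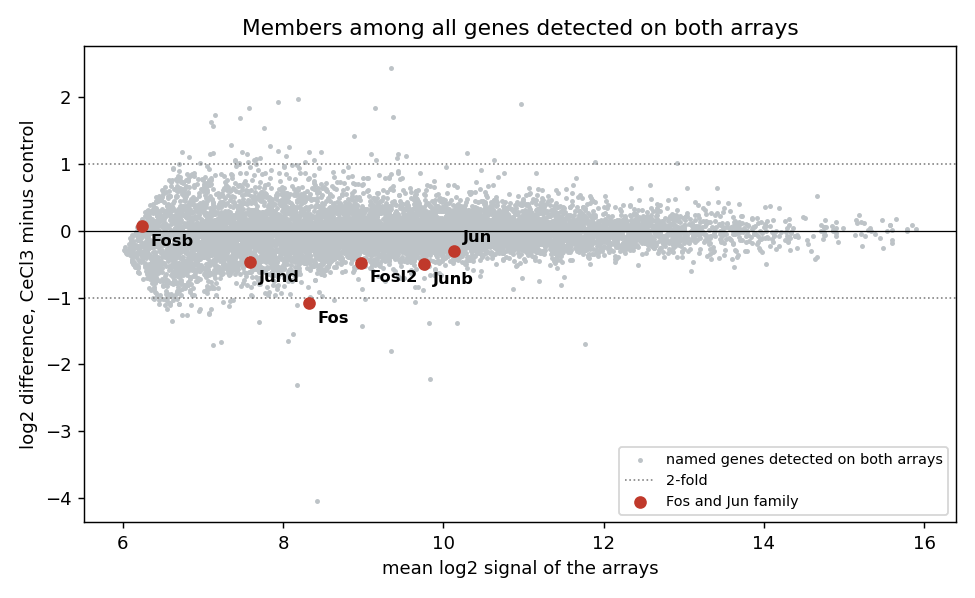
Log2 difference against mean log2 signal for the 9473 named genes detected on both arrays (grey) and the 6 measured AP-1 genes (red), with dotted lines at 2-fold. Fos lies below the lower 2-fold line at a mean signal of 8.32, and Fosb lies at the dim edge of the cloud.

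Promoter sequence was compared because the inducible members are known to answer to cAMP response elements (CRE). The 250 bases before the annotated start were taken from RefSeq (GRCm38.p6), which had an entry for the 6 measured members, and both strands were searched for the CRE TGACGTCA, its core TGACG (which lies inside it), the AP-1 site TGANTCA, the CArG box bound by serum response factor, and the TATA box TATAAA. The core TGACG was found in Fos, Fosb and Junb, and in 17.8% of 32841 RefSeq promoter windows of this length, in which a gene with several starts counts more than once. Counted by gene, over any start, 2354 of the 7656 named genes detected on both arrays with a promoter entry held the core. The TATA box was found in Fos, in 12.4% of windows and in 615 of these genes. The full CRE (1.55% of windows, 252 of these genes), the AP-1 site (6.75%, 412) and the CArG box (1.47%, 105) were found in 0 of the 6. Sites farther upstream than 250 bases were not searched, so a member without a match may still hold the site there. After the sequences were seen, the Jun promoter was also searched for TGACATCA, a variant AP-1 site known from Jun itself, and for the MEF2 motif. Each was found once, beside 2.93% of windows and 145 of these genes for TGACATCA, and 2.92% and 146 for MEF2. The 4 promoters of the members with a match are shown, and the capitals mark the matches.
Fos: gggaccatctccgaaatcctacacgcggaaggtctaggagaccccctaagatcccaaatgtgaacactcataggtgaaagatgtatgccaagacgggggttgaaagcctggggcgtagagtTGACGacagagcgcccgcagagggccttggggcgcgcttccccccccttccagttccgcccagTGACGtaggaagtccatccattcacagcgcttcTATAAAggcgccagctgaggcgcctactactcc
Fosb: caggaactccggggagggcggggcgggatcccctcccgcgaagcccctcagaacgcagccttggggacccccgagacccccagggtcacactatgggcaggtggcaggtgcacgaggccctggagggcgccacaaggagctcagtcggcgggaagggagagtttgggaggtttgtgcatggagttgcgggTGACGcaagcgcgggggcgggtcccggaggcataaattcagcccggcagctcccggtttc
Jun: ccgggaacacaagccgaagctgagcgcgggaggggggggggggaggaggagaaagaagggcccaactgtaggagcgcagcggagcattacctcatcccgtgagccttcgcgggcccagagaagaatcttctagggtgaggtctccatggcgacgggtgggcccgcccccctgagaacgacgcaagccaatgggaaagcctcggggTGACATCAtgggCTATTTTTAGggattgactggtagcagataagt
Junb: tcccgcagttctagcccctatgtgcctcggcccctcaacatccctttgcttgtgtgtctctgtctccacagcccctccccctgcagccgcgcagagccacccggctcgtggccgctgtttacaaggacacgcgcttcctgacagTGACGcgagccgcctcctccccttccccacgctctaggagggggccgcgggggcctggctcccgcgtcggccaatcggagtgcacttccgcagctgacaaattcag

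The windows lie at chr12:85473640-85473889, plus strand, for Fos, at chr7:19310046-19310295, minus strand, for Fosb, at chr4:95052223-95052472, minus strand, for Jun, and at chr8:84978749-84978998, minus strand, for Junb. Counted from the start, the cores in Fos begin at bases -129 and -66 and its TATA box at -33, the core in Fosb begins at -60, that in Junb at -106, and the 2 matches in Jun at -45 and -33. The members with the core had differences of -1.08 (Fos), -0.49 (Junb) and 0.07 (Fosb), and those without it -0.48 (Fosl2), -0.46 (Jund) and -0.31 (Jun). The 3 with the core hold the lowest and the highest value, and the bead interval of Fosb, the highest, held the values of all the others but Fos. Over all 7656 named genes with a promoter entry and detection on both arrays, the median difference was -0.04 in the 2354 genes with the core and -0.05 in the 5302 without it. In the 412 genes with an AP-1 site in the window the median was -0.06, with a bead interval below 0 in 15.8% and above 0 in 8.25%, and in the 7244 genes without it the median was -0.04, with 13.4% and 8.59%. A match of letters is no evidence of binding.

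**Figure D4:**
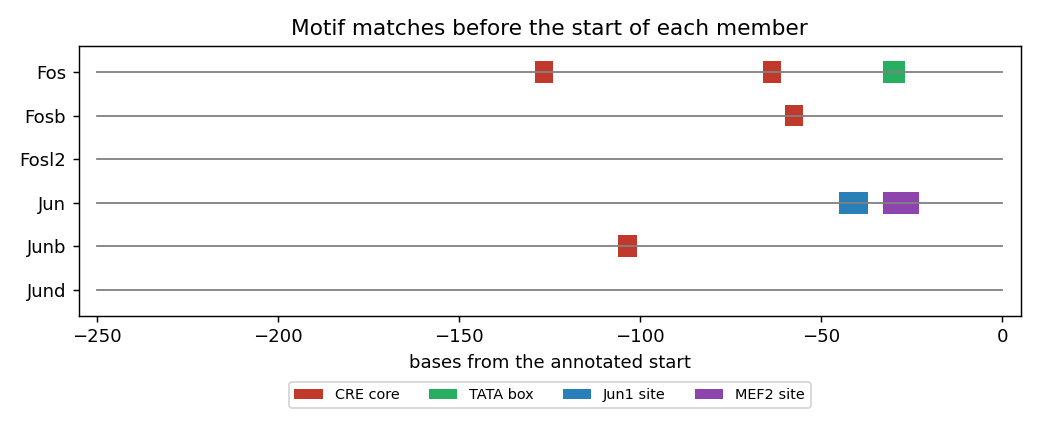
Positions of motif matches in the 250 bases before the annotated start of the 6 measured members, in bases from the start. Fos, Fosb and Junb hold the CRE core, Fos a TATA box and Jun its 2 matches, while Fosl2 and Jund hold none of those searched.

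Genes around AP-1 were read from 7 lists, and each is given beside the median of all genes (-0.05) and the shares of all genes with a bead interval below 0 (13.9%) or above 0 (8.59%). A listed gene stands for its brightest detected probe alone, also where it has others. Over 3114 genes with at least 2 probes detected on both arrays, the 2 brightest shared a sign in 56.6%. Among factors that act on the Fos promoter, 9 of 19 listed were detected on both arrays, with a median of 0.03, 2 intervals below 0 and 0 above. Another 2, named after their values were seen, were detected on 1 array, Elk3 for the control alone and Crtc2 for CeCl3 alone. By bounds without bead error, Elk3 was 1.31-fold lower with CeCl3 and Crtc2 1.07-fold higher. The bead interval of the measured difference of Crtc2 (-0.24 to 2.79) held 0, so no rise is shown for it. Among the 9, the 2 with an interval below 0 were Crem at -0.64 (-1.13 to -0.15) and Creb1 at -0.35 (-0.66 to -0.05). Crem is a cAMP-responsive factor with activating and repressing forms. Mef2c, a neuronal activity-regulated factor, lay at -0.17 (-0.35 to 0.00), and Elk4, a partner of serum response factor, at 0.28 (-0.16 to 0.72). Srf itself, looked up after its value was seen, lay at 0.10 (-0.15 to 0.36).

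Kinases of the ERK, JNK and p38 pathways had a median of 0.05 over 19 of 32 listed genes, with 2 intervals below 0 and 2 above. Rps6ka3, or RSK2, which phosphorylates Fos and Creb1, lay at -0.55 (-0.91 to -0.18), and Map2k6, an activator of p38, at -0.40 (-0.76 to -0.04). Mapk8, or JNK1, which phosphorylates Jun, was higher at 0.35 (0.09 to 0.60), and Map3k5, an upstream kinase of JNK and p38, lay at 0.29 (-0.13 to 0.71). The dual-specificity phosphatases, which switch these kinases off, had a median of -0.06 over 11 of 12 genes, with 3 intervals below 0 and 0 above. Dusp2 lay at -0.86 (-1.55 to -0.18), on a probe that was dim on the CeCl3 array (log2 signal 6.31). Dusp4 lay at -0.48 (-0.84 to -0.13) and Dusp10 at -0.40 (-0.72 to -0.08), while Dusp14 lay at 0.29 (-0.22 to 0.81). The median of all genes was -0.05, and how far medians of lists of this size vary was not assessed. A difference between the 2 lists was not tested.

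The other bZIP proteins that can pair with Fos or Jun, or with the same partners, had a median above 0. Of 21 listed, 10 were detected on both arrays, 10 on neither and 1 had no named probe, and the median was 0.09, with 1 interval below 0 and 1 above. Atf7, which binds CRE sequences, was higher at 0.64 (0.25 to 1.03), and Atf5 lay at 0.44 (-0.04 to 0.92). Ddit3, or CHOP, a stress-induced bZIP protein, lay at -0.30 (-0.57 to -0.02) and Maf at -0.34 (-1.07 to 0.40). The difference between this list and the AP-1 genes has no test with 1 array per group.

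Cofactors of AP-1 and proteins that control its turnover had a median of 0.13 over 14 of 21 genes, with 2 intervals below 0 and 2 above, and 1 more (Ncoa2, named after its value was seen) was detected for CeCl3 alone. Usp28, a deubiquitinase that can stabilise Jun, was higher at 0.46 (0.21 to 0.71), and Nfatc4, of the NFAT family that binds DNA beside AP-1, lay at 0.52 (-0.02 to 1.06). Smarcd1, a chromatin remodelling subunit, lay at 0.40 (-0.40 to 1.20) and the ubiquitin ligase Ube3a at -0.54 (-1.03 to -0.05).

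Genes known as AP-1 targets had a median of -0.11 over 20 of 32 listed genes. Of the 20, 15 lay below 0, where 57.7% of all genes did, 3 had a bead interval below 0 and 2 above. Nptx2, a pentraxin secreted at excitatory synapses, lay at -0.43 (-0.68 to -0.18), and Bcl2l11, or Bim, a cell death gene that Jun activates in neurons deprived of growth factor, at -0.37 (-0.64 to -0.10). Gria2, the AMPA receptor subunit known to be induced by the stable Fosb form in mouse striatum, was higher at 0.69 (0.40 to 0.97), and the matrix protease Mmp9 lay at 0.40 (-0.49 to 1.29) on a dim probe. Cd44, a hyaluronan receptor, had a detected signal for the control alone, which puts it at least 1.70-fold lower with CeCl3, a bound without bead error.

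Other immediate early genes had a median of -0.15 over 25 of 44 listed genes, with 8 intervals below 0 and 1 above, while 3 more were detected for CeCl3 alone and 2 for the control alone. Egr2 lay at -1.26 (-1.77 to -0.75) and Arc at -0.70 (-0.94 to -0.46), beside Fos at -1.08. Klf4, a zinc finger factor of quiescent and differentiating cells, lay at -0.79 (-1.38 to -0.19) and Ier5l at 0.54 (0.10 to 0.98). Egr2 and Klf4 were dim on the CeCl3 array, with log2 signals of 6.10 and 6.24 beside a lowest detected signal of 5.87. Sik1, a kinase that restrains CREB coactivators, was detected for the control alone (at least 1.68-fold lower with CeCl3) and Csrnp1 for CeCl3 alone (at least 7.46-fold higher). Both are bounds without bead error. Atf3 and Maff, which are on this list and on that of bZIP proteins, were not detected.

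**Figure D5:**
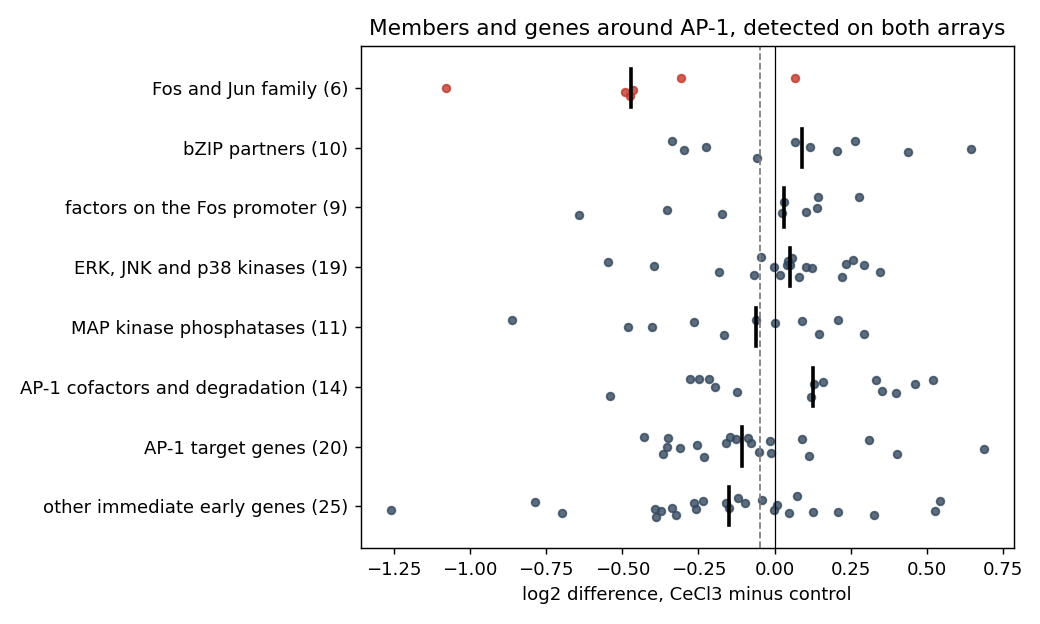
Log2 difference, CeCl3 minus control, of each gene detected on both arrays in the AP-1 families (red) and in 7 lists of genes around AP-1, with black bars at list medians, a dashed line at the median of all genes and the number of genes in brackets. The AP-1 median is -0.47 and the list medians run between -0.15 and 0.13.

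The reference genes Actb (-0.01, -0.18 to 0.17), Hprt (-0.01, -0.26 to 0.23) and Gapdh (-0.10, -0.26 to 0.07) had intervals that held 0. These were narrower than that of Fos, on brighter probes, with mean log2 signals between 13.62 and 13.84 against 8.32 for Fos. Rplp0, with a mean log2 signal of 8.03, lay at -0.34 (-0.73 to 0.05), a difference as large as that of Jun, although its interval held 0.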

How the data were processed

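The 2 arrays, 1 CeCl3 and 1 control, were grouped from the labels. The authors made the values with BeadStudio, per the submitters' processing notes, with settings that the sources used here do not give. Per the file headers, the deposited table gives each probe's mean intensity (after background subtraction, as 27.1% of values are below 0 on either array), the signal standard error over beads, the bead count (12 to 137 on the CeCl3 array and 15 to 157 on the control array) and a detection p-value. Where intensities lie well away from 0, the percentiles of the 2 deposited intensity columns differ by at most 0.509%. Their medians are 16.19 on each array, so the columns appear normalized between arrays. The deposited series matrix intensity ranks probes identically (Spearman 1) but its 75th percentiles stand at a ratio of 1.28, with medians of 15.9 and 14.2 for the CeCl3 and the control array; it served as an alternative.

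Intensities were corrected with normexp (limma 3.58.1, R 4.3.3; negative controls inferred from detection p-values, offset 16), quantile normalized and converted to log2. A gene was given by its brightest probe detected on at least 1 array. Bead standard errors were carried to the log2 scale, and 1.96 of them form the interval. A gene detected on 1 array alone has a bound against the lowest detected signal of the other, without bead error. Of 45281 probes, 34885 had a single symbol (34807 of these matched RefSeq by gene number), 18 had several and 10378 were unnamed here. The steps were tested on simulated data. Members, lists and motifs were chosen with earlier results of these data known. Named were all members, the 4 largest differences per list, genes past a bound of 1.5-fold, and sex and reference genes. The 3 genes nearest to Fos in level, also planned, are left out, since levels of different probes are not comparable. There were 9 alternatives.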

Additional observations from a re-analysis of the deposited data

How the results depend on the processing

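All 54 values of the 6 members under the 9 alternatives kept their sign and lay inside the reported bead interval, and 5 members were lower under each. In the reported setting 57.7% of all genes detected on both arrays were lower. By construction, the choices of detection filter and of probe could not move a member, since each has 1 detected probe. Fos ranged between -1.22 and -0.91. In the series matrix without normalization, with a median over all genes of 0.18 in place of -0.04, the members' median was -0.25, which is -0.44 from all genes against -0.43 in the reported setting. Fos was at least 2-fold lower except there and with an offset of 50. Counts of 2-fold genes depended on the processing. The reported setting gave 289 higher and 203 lower of 10416 measured genes, an offset of 50 gave 70 and 37, and genes detected on both arrays gave 46 and 47. The series matrix gave 676 higher without normalization, and 306 lower with quantile normalization. The count lower was 318 without normexp, 320 at a detection p-value under 0.05 and 325 with no filter. The higher share of 2-fold genes was 58.7%, against 81.0% in the series matrix without normalization. It was 49.6% at a detection p-value under 0.05, 49.2% with no filter and 49.5% for genes detected on both arrays. Under the remaining alternatives it lay between 54.9% and 65.4%. Dim probes limit Fosb. No paired analysis was possible because each group has 1 array.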

Other observations

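The spread over single beads, relative to the background-subtracted signal, differed between the members. On the CeCl3 array it was larger the dimmer the probe. It was largest for Fosb, the dimmest, with a coefficient of variation of 129.9% (CeCl3) and 189% (control). For Fos the coefficient of variation was 77.2% (CeCl3) and 49.6% (control). It was 25.4% (CeCl3) and 46.6% (control) for Jun, 29.1% (CeCl3) and 37.3% (control) for Junb, 46.6% (CeCl3) and 49.8% (control) for Fosl2, and 78.8% (CeCl3) and 78.9% (control) for Jund. In the series matrix as deposited, the Fos signal was 198 on the CeCl3 array, against 371 on the control array, and that of Fosb 54.0 on the CeCl3 array, against 40.2 on the control array.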
